A study of Homo sapiens with 48 samples.

Results

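The late response of MP41 cells to FHT-1015 was taken from 6 of the 48 RNA sequencing samples of the series. These are the 3 samples of MP41 treated with FHT-1015 for 24 h and the 3 of MP41 given DMSO, the negative control, for 24 h, chosen by line, agent and time in the sample titles. MP41 is an established line of uveal melanoma, a tumour of the pigment cells of the eye, and its genotype is labelled WT in both groups. FHT-1015 blocks the ATPase activity of SMARCA4 and SMARCA2. The dose is not given in the labels, 1 line stands for the tumour, and replicates are titled as biological, with no record of whether they came from separate cultures, so the p-values measure the spread between samples, which may be technical. The series also holds MP41 at 4 h and the lines 92-1 and MEL202 at both times; the libraries of 4 h share the fit and its estimate of the spread, and the other lines are used below for comparison, and 12 further samples not used here.

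SMARCA4 and SMARCA2 are the alternative motor subunits of BAF complexes, which slide and eject nucleosomes and so keep enhancers and promoters open to transcription factors. In pigment cells, SOX10 and MITF are the factors that hold the lineage in place. SOX10 is a neural crest factor that switches on MITF, and MITF in turn drives the genes of melanin synthesis, of melanosomes and of proliferation.

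After 24 h of FHT-1015, MP41 cells held far less SOX10 and MITF RNA and less RNA of 12 of 15 measured pigment genes than DMSO cells. All 30 measured DNA replication genes were called lower, and no measured mitosis or ribosome biogenesis gene was called higher. RNAs of 11 of 14 FOXO factors and targets, such as SESN3, KLF9 and CCNG2, were higher, as were SOX4 and SOX9. Of 15543 genes tested with edgeR's quasi-likelihood test at a Benjamini-Hochberg adjusted p under 0.05, 2709 were higher (17.4%) and 2908 lower (18.7%). The median absolute log2 fold change of these genes was 1.05 among the higher and 0.98 among the lower. A change over 4-fold was seen in 336 of the higher and 474 of the lower genes. limma-voom with sample weights called 4990 higher and 4445 lower, and a fit of the 6 libraries alone called 1362 higher. Since the samples are bulk RNA, fewer cells of a kind and less RNA per cell cannot be told apart.

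The 6 libraries held 17163998 to 23603769 reads in genes and 20353 to 24206 genes with a read. Values per sample are TMM-normalised CPM, the reads of a gene scaled to a common library size. The 3 DMSO libraries of 24 h differed among themselves with the GC content of genes. Across genes, the deviation of a library from its group mean had a Spearman correlation with GC of 0.739 in DMSO replicate 2 and −0.740 in DMSO replicate 3, against −0.100 in DMSO replicate 1 and −0.137 to 0.217 in the treated libraries. This measure is relative to the group, so a library between its mates lies near 0. Taken from the mean of all 12 MP41 libraries, the correlation was 0.556, 0.746 and −0.248 in DMSO replicates 1 to 3 of 24 h. It was −0.410 to −0.367 in the DMSO libraries of 4 h and −0.109 to 0.012 in the treated libraries of 24 h. The treatment effect moved with GC too: the median log2 fold change was 0.51 in the 3105 genes lowest in GC and −0.23 in the 3105 highest in GC. Called genes had a median GC of 43.9% where higher and 53.5% where lower. A call is described below as kept where it held the same direction and stayed past the threshold with GC and length offsets, with the 3 MP41 DMSO libraries of 4 h as controls, and without each of the 12 MP41 libraries in turn. With the offsets, 3610 genes were higher (23.2%) and 3641 lower (23.4%), and against the 4 h controls 2489 (16%) and 2625 (16.9%). All conditions together left 1076 higher genes (6.92% of those tested) and 1625 lower genes (10.5%). Counts over the gene lists are to be read against these shares of all genes. For genes named below as kept, the log2 fold change against the DMSO libraries of 4 h was smaller by over 1.5 times for TFAP2A (0.58), CDKN2B (1.16), FOXO1 (0.70), GDF15 (−1.34), DUSP6 (0.93), SLIT2 (1.25), BMPR2 (0.71), CRIM1 (0.99), ITGB3 (−1.35) and ESRRA (−0.61), and that with GC and length offsets for ETV1 (1.23), TGFBR1 (0.82), BMPR2 (0.77), GNA11 (−0.58), BAK1 (−0.51) and BCL7A (−0.47). Genes encoded by mitochondrial DNA took 3.56% to 5.96% of the treated reads and 1.3% to 3.42% of the DMSO reads, and the part of this gap in other results was not tested.

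**Figure D1:**
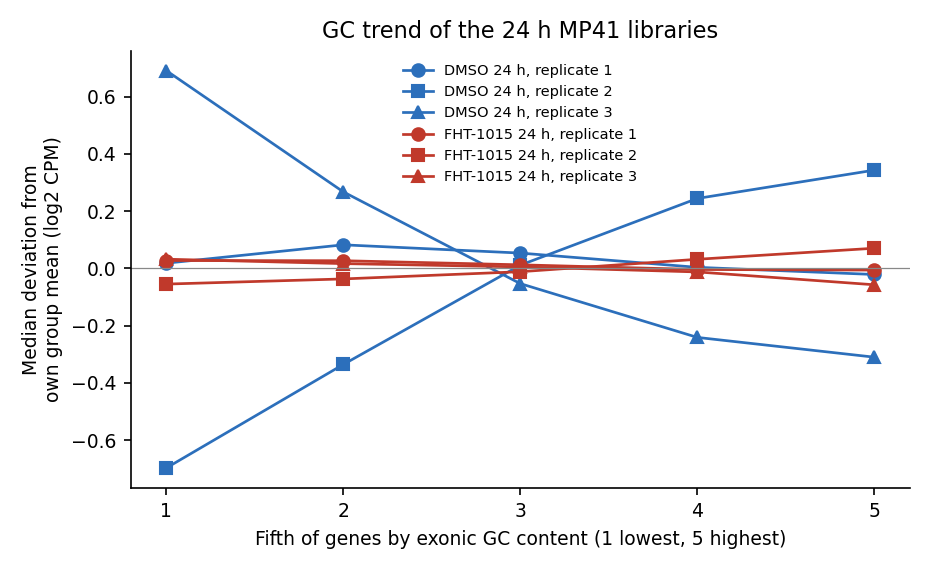
Median deviation of each 24 h library from its group mean (log2 CPM, y axis) across 5 bins of genes ordered by GC content (x axis), with 1 line per library and colours for DMSO and FHT-1015. DMSO replicates 2 and 3 tilt in opposite directions, with medians of −0.70 and 0.69 in the lowest bin, while the treated libraries stay near 0.

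MP41 carried the RNA of pigment cells. In the DMSO libraries PMEL stood at 4682 to 6382 CPM, TYRP1 at 2838 to 4673, TYR at 776 to 1140 and PAX3 at 98.9 to 116. Immune, fibroblast, epithelial and endothelial markers were low beside these. The summed level of 12 immune genes was 2.51 to 3.21 CPM with DMSO and 2.81 to 3.79 CPM with FHT-1015, and CD3E, CD3D and AIF1 had no read. The sum over 11 fibroblast genes was 35.5 to 49.2 CPM with DMSO and 44.3 to 53.4 CPM with FHT-1015, with 1 of the 7 tested members called, ACTA2 (log2 fold change 0.95, or 0.26 and not called against the DMSO libraries of 4 h). The sum over 9 epithelial genes was 24.7 to 62.4 CPM with DMSO and 12.9 to 17.8 CPM with FHT-1015; of 6 tested, ESRP1 fell (log2 fold change −2.30, kept) and CLDN4 was called lower, but not against the DMSO libraries of 4 h. The sum over 7 endothelial genes was 12.1 to 30.7 CPM with DMSO and 19.95 to 24.6 CPM with FHT-1015. Of 3 tested, CLDN5 and VWF were called lower, at 0.391 to 1.26 and 0.572 to 1.76 CPM with DMSO, and neither call was kept: that of CLDN5 was lost without DMSO replicate 2 or FHT-1015 replicate 2, and that of VWF without DMSO replicate 1 or FHT-1015 replicate 1 or 3.

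Markers that pigment cells share with other cells were high. Of 9 retinal pigment epithelium genes, OTX2 and CRX had no read, and the list summed to 4703 to 6405 CPM with DMSO and 2648 to 3251 CPM with FHT-1015, nearly all of it PMEL. Of 6 tested, PMEL, RLBP1 (log2 fold change −2.99) and BEST1 (−4.44) were lower and kept; BEST1 overlaps FTH1, and its value was 0.0669 in the summed stranded columns. LRAT was called higher (0.95), but not with GC and length offsets, against the DMSO libraries of 4 h, or in any fit without 1 library except that without DMSO replicate 3. The 10 Schwann cell and glia genes summed to 923 to 1175 CPM with DMSO and 603 to 739 CPM with FHT-1015, and 5 of the 9 tested fell, with ERBB3, MBP, PMP22 and S100B among them. The part of these markers in other results was not tested.

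Neither target of the drug was called. SMARCA4 (chr19:10960825-11079426) stood at 736, 479 and 456 CPM with FHT-1015 in replicates 1 to 3 and at 651, 890 and 461 CPM with DMSO. SMARCA2 (chr9:1980290-2193624) stood at 63.7, 45.5 and 54.7 CPM against 53.9, 47.7 and 58.6 CPM. The groups overlapped for both genes, and neither was called (edgeR log2 fold change −0.26, SE 0.23, adjusted p = 0.388 for SMARCA4; 0.03, SE 0.15, adjusted p = 0.888 for SMARCA2). SMARCA4 was called lower without DMSO replicate 3 (log2 fold change −0.54, edgeR adjusted p = 0.0295) and by limma-voom (−0.39, adjusted p = 0.00878), and the sign of both genes turned with GC and length offsets (0.09 and −0.24). Of 26 BAF subunit genes tested, 5 rose and 4 fell, 19.2% and 15.4% against the 17.4% and 18.7% of all genes, with a median log2 fold change of −0.02. The counts were 9 and 4 with GC and length offsets and 3 and 1 against the DMSO libraries of 4 h. BICRAL, a subunit of the GLTSCR1-containing form of the complex, rose (log2 fold change 1.08) and BCL7A fell (−0.77). No other call of the list was kept. The number of higher members was 3 without DMSO replicate 1, FHT-1015 replicate 1 or FHT-1015 4 h replicate 3, and that of lower members was 9 without DMSO replicate 3.

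SOX10 (chr22:37970686-37987422, minus strand) stood at 39.3, 45.1 and 48.3 CPM with FHT-1015 and at 1054, 1575 and 912 CPM with DMSO, 44.3 ± 4.58 against 1180 ± 349 (SD, n = 3). Every treated library lay far below every DMSO library. The fall was 4.74 on the log2 scale, a 26.7-fold lower level (edgeR log2 fold change −4.74, SE 0.22, adjusted p = 7.09e-08). Against the DMSO libraries of 4 h it was smaller, with a log2 fold change of −3.37. The gene overlaps POLR2F. The files count ambiguous reads apart from genes, 9.74% to 11.8% in the 6 libraries, and the part of this overlap in the value was not tested.

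MITF (chr3:69739435-69968337, plus strand) stood at 82.6, 72.5 and 81.7 CPM with FHT-1015 and at 384, 387 and 625 CPM with DMSO, 78.9 ± 5.61 against 466 ± 138 (SD, n = 3). The groups did not overlap, and DMSO replicate 3 was the highest. Its log2 fold change was −2.56 (edgeR, SE 0.22, adjusted p = 1.94e-06). Against the DMSO libraries of 4 h it was −2.05. The falls of SOX10 and MITF were both kept.

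Among 12 tested transcription factors and receptors of the lineage, 6 fell and 2 rose, 50% and 16.7% of the list, with a median log2 fold change of −0.69 beside 0.07 over all genes tested. Against the DMSO libraries of 4 h 5 fell and 1 rose, with a median of −0.34 beside 0.02 over all genes. ERBB3, the neuregulin receptor of neural crest cells, fell from 183, 233 and 151 CPM to 44.1, 39.9 and 36.3 CPM (edgeR log2 fold change −2.24, SE 0.19, adjusted p = 1.93e-06). SNAI2, a repressor of epithelial genes, fell by 1.80 and LEF1, the nuclear partner of beta-catenin, by 1.04 on the log2 scale. The receptor KIT and the factor TFAP2A rose, KIT from 102, 76.0 and 137 CPM to 213, 180 and 218 CPM (log2 fold change 0.96) and TFAP2A from 183, 198 and 178 CPM to 364, 354 and 340 CPM (0.92). TFAP2A was kept, while KIT was not called against the DMSO libraries of 4 h (log2 fold change 0.49). PAX3, which acts with SOX10 on MITF, was not called (log2 fold change −0.18, adjusted p = 0.284).

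Of 15 genes for melanin enzymes, melanosome structure and pigment transporters, 12 fell and 0 rose, 80% against the 18.7% lower among all genes, with a median log2 fold change of −1.61. The other 3 were not called. The summed level was 7137 to 7870 CPM with FHT-1015 and 13199 to 14082 CPM with DMSO, and 11 of the 12 falls were kept. The size of the fall ranged widely over the list.

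TRPM1, a melanocyte cation channel gene, stood at 3.70, 2.19 and 1.49 CPM with FHT-1015 and 53.7, 63.4 and 59.7 CPM with DMSO (edgeR log2 fold change −4.61, SE 0.28, adjusted p = 1.3e-07). TSPAN10, a tetraspanin linked to pigmentation, stood at 9.98, 15.1 and 9.63 CPM against 206, 345 and 184 CPM (log2 fold change −4.40). These genes were 24.4-fold and 21.1-fold lower in the treated cells than with DMSO at 24 h. Against the DMSO libraries of 4 h their log2 fold changes were smaller, −3.52 for TRPM1 and −4.05 for TSPAN10. The melanin enzymes fell less. DCT, dopachrome tautomerase, stood at 24.6, 12.3 and 13.1 CPM against 94.6, 102 and 167 CPM (log2 fold change −2.87), and TYR, tyrosinase, which starts melanin synthesis, at 378, 284 and 308 CPM against 1140, 776 and 1042 CPM (−1.61). MLANA, a melanosome membrane protein gene, lay between these (log2 fold change −2.11). The abundant pigment RNAs moved less. PMEL, the fibril protein of the melanosome, stood at 3244, 2822 and 2642 CPM against 5910, 6382 and 4682 CPM (log2 fold change −0.96, SE 0.21, adjusted p = 0.00308 by edgeR). TYRP1 stood at 2682, 2779 and 2556 CPM against 3964, 2838 and 4673 CPM (log2 fold change −0.52, adjusted p = 0.0254 by edgeR; −0.99 with GC and length offsets). Its call was lost without DMSO replicate 1 (adjusted p = 0.0698) or without FHT-1015 replicate 1, 2 or 3 (0.0535, 0.0544 and 0.0801).

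Promoter sequence was read from RefSeq (GRCh38.p14) for the fallen pigment and lineage genes, to show where the short E-box CATGTG, a form MITF is known to bind, lies near their starts. Of 18 such genes 12 had an entry, and 9 of these (75%) held CATGTG or CACGTG on either strand at 1 or more starts, in the table's window of 250 bases before to 50 after the start. The same holds for 20.96% of all 10621 tested genes with an entry and 27.2% of the 2119 lower ones. Counted by start, 10 of the 18 promoters of these 12 genes held a motif (55.6%) against 16.2% of those of all tested genes, and MITF, LEF1 and MLANA held none. SOX10, PMEL, ERBB3, SLC45A2, BACE2 and SNAI2 were without an entry. The stretches below run from 150 bases before to 20 after a start, on the gene's strand, with the motif in capitals; CACATG is CATGTG read on the other strand. They belong to the largest falls among the named genes with a motif and to TYRP1. TRPM1 has 2 starts, and its motif begins at position −8 of the first and −56 of the second. CAPN3 has 3 starts in the table, and 1 of them has the motif, beginning at 4. In TSPAN10 it begins at −80 and in TYRP1 at −144 and −11, counted from the start.
TRPM1, chr15:31161141-31161310, minus strand: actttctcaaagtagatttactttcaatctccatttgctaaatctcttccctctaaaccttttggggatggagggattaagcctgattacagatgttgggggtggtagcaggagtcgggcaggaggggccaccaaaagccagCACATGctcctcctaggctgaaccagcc
TRPM1, chr15:31101706-31101875, minus strand: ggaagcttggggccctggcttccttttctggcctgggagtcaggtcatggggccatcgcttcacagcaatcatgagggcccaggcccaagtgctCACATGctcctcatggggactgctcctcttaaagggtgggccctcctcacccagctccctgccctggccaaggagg
TSPAN10, chr17:81642155-81642324, plus strand: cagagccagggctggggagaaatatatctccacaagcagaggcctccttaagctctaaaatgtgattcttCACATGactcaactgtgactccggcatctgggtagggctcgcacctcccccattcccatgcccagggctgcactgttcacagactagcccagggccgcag
CAPN3, chr15:42402217-42402386, plus strand: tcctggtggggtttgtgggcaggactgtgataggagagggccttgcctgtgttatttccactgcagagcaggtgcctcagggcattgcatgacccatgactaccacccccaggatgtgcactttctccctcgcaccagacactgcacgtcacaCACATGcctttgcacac
TYRP1, chr9:12693235-12693404, plus strand: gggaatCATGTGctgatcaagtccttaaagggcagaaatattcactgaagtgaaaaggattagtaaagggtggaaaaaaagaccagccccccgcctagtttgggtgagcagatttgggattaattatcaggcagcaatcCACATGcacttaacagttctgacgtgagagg

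CAPN3, a calpain protease gene, fell from 5.92, 5.03 and 3.78 CPM to 0.179, 0.757 and 0.620 CPM (log2 fold change −3.17). The motif was not rare. CATGTG was in 7.64% of the 15586 promoters of tested genes, in 7.93% of the 2962 of higher genes and in 9.76% of the 3167 of lower genes. CACGTG, the E-box shared with MYC and other factors, was in 9.34%, 7.02% and 12.3% of the same sets. The 3 sets differed in GC content as well, at 63.5%, 62.1% and 65.1%, and the part of GC in these shares was not tested. A match is a string of letters, not a bound site.

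**Figure D2:**
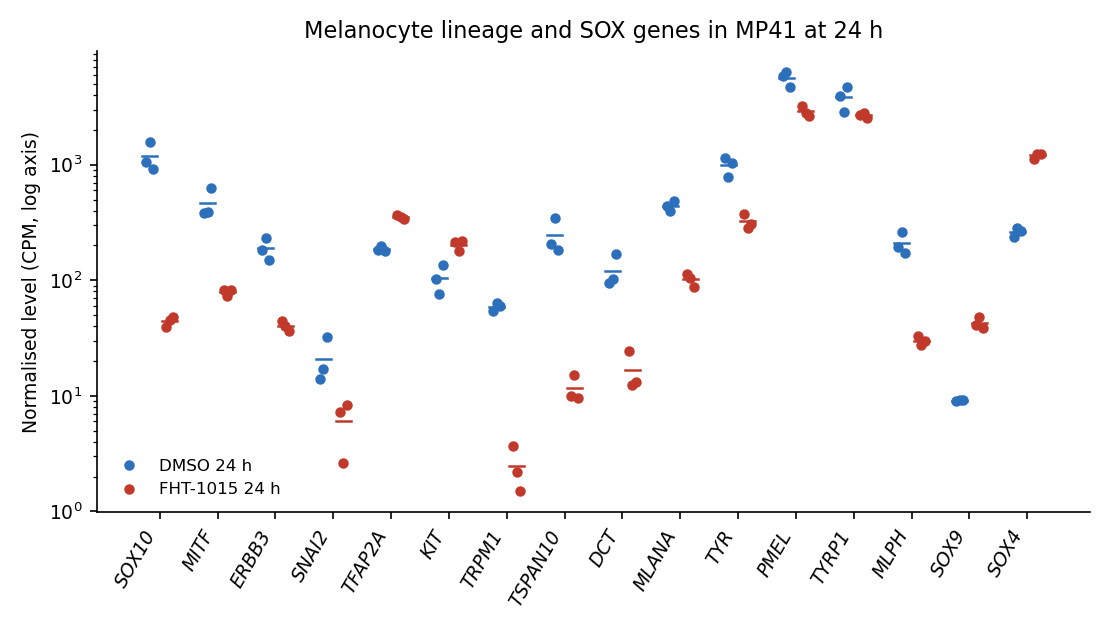
CPM per library (log axis) of 16 lineage, pigment and SOX genes in MP41 at 24 h, with 3 DMSO and 3 FHT-1015 points per gene. SOX10, TRPM1 and TSPAN10 show the widest gaps, TYRP1 the narrowest, and SOX9 and SOX4 stand higher with FHT-1015.

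Genes that carry and mature melanosomes fell in part. Of 18 tested, 9 fell and 0 rose, 50% lower against 18.7% of all genes, with a median log2 fold change of −0.76. Of the falls, 6 were kept, where 10.5% of all genes were kept as lower. With GC and length offsets 11 fell and 1 rose. Against the DMSO libraries of 4 h 7 fell, with a median of −0.485. MLPH, the melanophilin that ties melanosomes to myosin, fell from 196, 263 and 173 CPM to 33.2, 27.4 and 29.6 CPM (edgeR log2 fold change −2.81, SE 0.17, adjusted p = 1.24e-07). RAB32, a small GTPase of melanosome supply, fell by 1.60 and LYST, which sets the size of lysosome-related organelles, by 1.37 on the log2 scale.

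Of 8 SOX genes other than SOX10 tested, 2 were higher and 2 lower, 25% each against 17.4% and 18.7% of all genes. SOX4 (chr6:21592768-21598619), a factor of progenitor cells, rose from 239, 286 and 266 CPM to 1116, 1243 and 1248 CPM (edgeR log2 fold change 2.19, SE 0.13, adjusted p = 1.24e-07). SOX9 (chr17:72121020-72126420), a SOX10 relative of neural crest and cartilage, rose from 8.93, 9.20 and 9.12 CPM to 41.2, 48.4 and 38.7 CPM (log2 fold change 2.23). The groups did not overlap for either gene, and both rises were kept. SOX6 fell by 0.86 and SOX8 by 0.95 on the log2 scale, and the fall of SOX6 was kept while SOX8 was not called against the DMSO libraries of 4 h. Of 15 neural crest and mesenchyme genes, 2 rose and 4 fell (13.3% and 26.7%), with 1 higher without DMSO replicate 1 or FHT-1015 replicate 2. AXL, a receptor kinase of undifferentiated melanoma cells, rose from 0.151, 0.514 and 0.217 CPM to 1.91, 3.32 and 2.61 CPM (log2 fold change 3.17), a low level in both groups. NES, the intermediate filament nestin, fell by 1.42 and SNAI1 by 1.84.

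DNA replication genes fell without exception in the list tested. All 30 were lower, with a median log2 fold change of −1.20, and 21 of the falls were kept. Their summed level was 1522 to 1682 CPM with FHT-1015 and 3805 to 4023 CPM with DMSO. MCM10, a replication initiation factor, stood at 12.01, 11.5 and 16.0 CPM against 72.2, 71.9 and 87.9 CPM (edgeR log2 fold change −2.55, SE 0.17, adjusted p = 1.87e-07). CDC6, which loads the replicative helicase, stood at 22.7, 26.5 and 38.2 CPM against 168, 123 and 188 CPM (log2 fold change −2.45), and FEN1, the flap endonuclease, at 17.1, 17.1 and 19.6 CPM against 87.0, 91.0 and 84.0 CPM (−2.28). PCNA, the sliding clamp, fell by 0.88. Treated replicate 3 was the highest treated library for these 4 genes, and still below every DMSO library.

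Mitosis genes depended more on the controls. Of 28 tested, 13 fell and 0 rose, 46.4% lower against 18.7% of all genes, with a median log2 fold change of −0.54. The number lower was 24 with GC and length offsets (23.4% of all genes), 18 against the DMSO libraries of 4 h (16.9%) and 21 without DMSO replicate 2, and 11 falls were kept. The scatter lay in the DMSO group. TOP2A, the topoisomerase that untangles chromosomes, stood at 235, 80.01 and 441 CPM in the DMSO libraries and at 187, 204 and 263 CPM with FHT-1015, and was not called (log2 fold change −0.21). It was called lower with GC and length offsets (−0.54, edgeR adjusted p = 0.0445) and without DMSO replicate 2 (−0.64, adjusted p = 0.0379), and its value without DMSO replicate 3 was 0.42. AURKB, the kinase of the chromosomal passenger complex, fell from 99.7, 115 and 93.1 CPM to 23.4, 30.1 and 35.7 CPM (edgeR log2 fold change −1.79, SE 0.17, adjusted p = 4.58e-06). MKI67, the proliferation marker, fell by 1.19, and FOXM1, the factor that drives mitotic genes, by 1.22 on the log2 scale.

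Regulators of the step from G1 to S fell in 15 of 25 cases and rose in 5, 60% and 20% against 18.7% and 17.4% of all genes, with 11 falls and 2 rises kept. The number higher was 2 without DMSO replicate 1 or FHT-1015 replicate 3, and 3 without FHT-1015 replicate 2 or FHT-1015 4 h replicate 1 or 3. CCND1, cyclin D1, stood at 128, 133 and 120 CPM with FHT-1015 against 532, 701 and 603 CPM (edgeR log2 fold change −2.27, SE 0.14, adjusted p = 1.41e-07). E2F1 fell by 2.19, E2F2 by 2.83 and E2F8 by 2.37. CDK2 fell by 3.09. It overlaps PMEL, and the part of this overlap in its value was not tested. The kept rises were CDKN2B, an inhibitor of CDK4 and CDK6, from 9.33, 11.1 and 8.34 CPM to 32.1, 33.2 and 32.9 CPM (log2 fold change 1.77), and MXD4, an antagonist of MYC (1.89). Of the other CDK inhibitor genes, CDKN1C (−1.87) and CDKN1A (−0.42) were called lower and CDKN1B (0.48) and CDKN2A (0.49) higher, and none of these calls was kept. That of CDKN1C was lost against the DMSO libraries of 4 h (−0.63), and those of CDKN1A, CDKN1B and CDKN2A in 7, 5 and 10 of 12 fits without 1 library. MYC itself stood at 94.1, 82.6 and 93.7 CPM against 186, 199 and 167 CPM (log2 fold change −1.03).

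**Figure D3:**
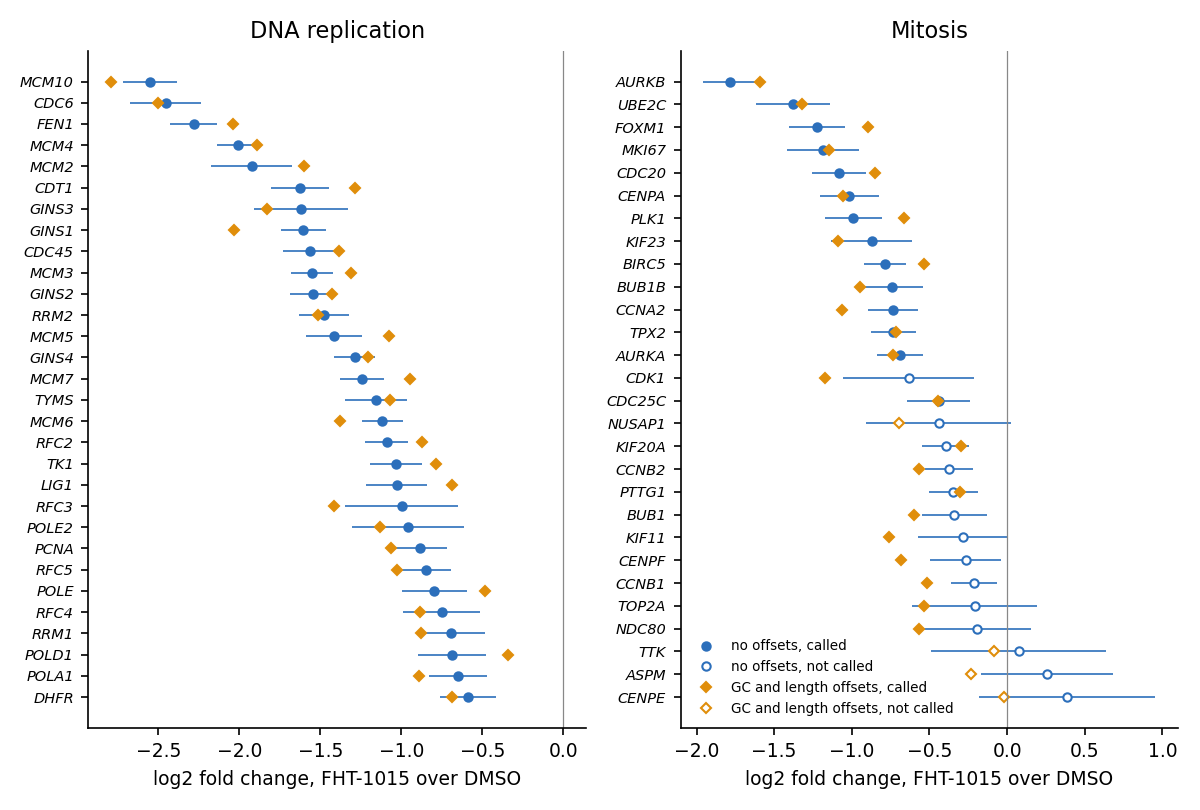
Log2 fold change at 24 h (x axis) of the 30 replication and 28 mitosis genes tested (1 line of the y axis per gene), as circles with their SE and, with GC and length offsets, as diamonds; filled marks are called. The replication genes all lie below 0, and more mitosis genes are filled with the offsets (24) than without them (13).

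FOXO factors and their targets rose in 11 of 14 cases and fell in 0, 78.6% against 17.4% of all genes, with a median log2 fold change of 1.11. All 11 rises were kept. They include inhibitors of growth and also ERBB2, a growth factor receptor (log2 fold change 1.18), and IRS2, an adaptor of insulin signals (0.79). SESN3, a sestrin that lowers mTORC1 activity, stood at 276, 241 and 243 CPM against 17.01, 11.3 and 39.1 CPM (edgeR log2 fold change 3.49, SE 0.36, adjusted p = 8.4e-06). KLF9 stood at 51.0, 44.1 and 48.8 CPM against 5.47, 4.00 and 6.86 CPM (log2 fold change 3.13, or 1.87 against the DMSO libraries of 4 h). CCNG2, a cyclin that opposes division, rose by 3.02, TXNIP, an inhibitor of glucose uptake, by 1.85 and PIK3IP1, a brake on PI3 kinase, by 1.68. FOXO1 rose from 17.01, 14.7 and 16.2 CPM to 46.5, 39.3 and 38.0 CPM (log2 fold change 1.37).

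Ribosome biogenesis genes fell in 16 of 26 cases and rose in 0, 61.5% against 18.7% of all genes, with a median log2 fold change of −0.65 and 12 falls kept. With GC and length offsets 18 fell and 1 rose. LYAR, a nucleolar factor, fell by 1.58 and NOLC1, a chaperone of nucleolar particles, from 338, 347 and 361 CPM to 170, 140 and 146 CPM (log2 fold change −1.20). Of 17 genes of the ATF4 stress response, 7 fell and 3 rose, 41.2% and 17.6% against the 18.7% and 17.4% of all genes, and 5 rose without FHT-1015 replicate 1. With GC and length offsets 6 rose, with the median log2 fold change at 0.06 in place of −0.11, and 5 rose against the DMSO libraries of 4 h. SLC7A5 and SLC3A2, the chains of the large neutral amino acid transporter, fell by 2.20 and 1.27, while DDIT4, an inhibitor of mTORC1, rose by 1.5.

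Regulators of cell death went both ways. BCL2, which keeps mitochondria intact, stood at 3.23, 4.54 and 4.63 CPM against 31.9, 30.2 and 32.3 CPM (edgeR log2 fold change −2.92, SE 0.16, adjusted p = 1.11e-07). Among its antagonists, BMF rose from 55.4, 63.0 and 49.8 CPM to 171, 151 and 178 CPM (log2 fold change 1.57) and BBC3 rose by 1.23, while HRK fell by 1.72 and BAK1 by 0.78. Over the list of 17, 4 rose and 5 fell, 23.5% and 29.4% against the 17.4% and 18.7% of all genes. Of 18 p53 targets, 8 rose and 5 fell (44.4% and 27.8%), with 3 rises and 4 falls kept, and the number higher was 5 without DMSO replicate 1 or against the DMSO libraries of 4 h. GDF15, a secreted stress factor, stood at 304, 442 and 430 CPM against 1553, 1866 and 1626 CPM (log2 fold change −2.10), while MDM2 was higher against its own controls (1.05) and was not called against the DMSO libraries of 4 h (0.28).

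Genes that follow ERK signalling went both ways, with 4 higher and 7 lower of 18, 22.2% and 38.9% against 17.4% and 18.7% of all genes, and all 11 calls were kept; 11 were lower against the DMSO libraries of 4 h. DUSP4, a nuclear ERK phosphatase, stood at 13.4, 15.2 and 10.3 CPM against 156, 171 and 123 CPM (edgeR log2 fold change −3.53, SE 0.19, adjusted p = 9.27e-08). DUSP6, the cytoplasmic ERK phosphatase, went the other way, at 226, 278 and 250 CPM against 76.8, 65.1 and 101 CPM (log2 fold change 1.63). SPRY1, a sprouty inhibitor of receptor signals, rose by 2.34 and the ETS factor ETV1 by 1.85, while FOSL1, a component of AP-1, fell by 2.37. Of 16 genes of the Gq pathway and drivers of uveal melanoma, 3 rose and 5 fell (18.8% and 31.2%), with 1 higher under GC and length offsets or without FHT-1015 replicate 1 and 3 lower against the DMSO libraries of 4 h. PRKCA, a protein kinase C, rose by 0.85 and PRKCE, another, fell by 1.07, both kept. GNA11, a Gq family subunit gene, stood at 62.2, 59.6 and 60.8 CPM against 112, 142 and 90.0 CPM (log2 fold change −0.91). Of 20 receptor kinases and ligands, 3 rose and 6 fell (15% and 30%), with 5 higher under GC and length offsets and 1 without DMSO replicate 1. ERBB2 rose by 1.18, and TYRO3 fell by 1.78 and MET by 1.34.

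Guidance genes changed in 17 of 24 cases, 9 higher and 8 lower, 37.5% and 33.3% against the 17.4% and 18.7% of all genes, with 7 rises and 6 falls kept. Among the ligands, SEMA3C, a secreted semaphorin, rose from 16.7, 9.49 and 24.6 CPM to 187, 160 and 195 CPM (edgeR log2 fold change 3.41, SE 0.28, adjusted p = 1.6e-06) and SLIT2, a repellent ligand, by 2.02, while SEMA6A fell by 1.11. SEMA3B was called lower (log2 fold change −1.05) but had a value of 0.32 against the DMSO libraries of 4 h. Among the receptors, the semaphorin receptor NRP2 fell from 473, 530 and 417 CPM to 61.6, 67.0 and 49.6 CPM (log2 fold change −3.00), and the plexins PLXNC1 and PLXNA2 by 2.59 and 1.86. The receptor NRP1 rose (log2 fold change 2.94) from a level under 1 CPM, and the slit receptor ROBO1 rose by 1.13.

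Of 26 BMP and TGF-beta genes, 11 rose and 2 fell (42.3% and 7.69%), with 7 rises kept; 5 fell without DMSO replicate 3. The receptor genes BMPR2 and TGFBR1 rose by 1.5 and 1.26. SKIL, a repressor of SMAD signals, was called higher (log2 fold change 1.60), but not against the DMSO libraries of 4 h (0.35). Of 18 genes of YAP and TEAD, 8 were called higher and 2 lower (44.4% and 11.1%), and without single FHT-1015 libraries of 24 h the number lower was 0 to 1. Against the DMSO libraries of 4 h the counts were 4 and 8, and the kept calls were the rises of AXL and CRIM1, a transmembrane regulator of BMP ligands (log2 fold change 1.98). Of 22 integrin and laminin genes, 5 rose and 5 fell (22.7% each), 8 rose with GC and length offsets or without DMSO replicate 2, and against the DMSO libraries of 4 h 11 were higher and 2 lower. Among these, the integrin genes ITGA1 and ITGAV rose by 2.51 and 1.76, and ITGB3 fell by 2.31. Of 20 collagen genes, 2 rose and 8 fell (10% and 40%). The number higher was 4 with GC and length offsets or without DMSO replicate 2, and 1 without DMSO replicate 1 or 3, FHT-1015 replicate 1 or 3, or FHT-1015 4 h replicate 1 or 3. COL11A1, a fibrillar collagen gene, rose from 1094, 1034 and 1003 CPM to 2115, 2019 and 2129 CPM (log2 fold change 1.00), while the basement membrane collagen COL4A1 fell by 2.01. Of 24 proteoglycan and matrix protease genes, 5 rose and 9 fell (20.8% and 37.5%), and TIMP3, an inhibitor of metalloproteinases, fell by 3.12. Of 11 genes of the uveal melanoma risk class panel, 8 rose and 1 fell, 72.7% and 9.09% against 17.4% and 18.7% of all genes, with 5 higher against the DMSO libraries of 4 h and 4 rises kept; these 4 included ROBO1, a slit receptor (log2 fold change 1.13), and SATB1, a chromatin organiser (1.41).

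PPARGC1B, a coactivator of respiratory genes, stood at 8.60, 6.56 and 6.78 CPM against 98.1, 107 and 73.6 CPM (edgeR log2 fold change −3.67, SE 0.22, adjusted p = 1.24e-07), PPARGC1A, the coactivator that MITF is known to drive, at 3.76, 5.55 and 3.10 CPM against 22.2, 18.003 and 26.5 CPM (−2.42, or −1.18 against the DMSO libraries of 4 h), and ESRRA, their partner receptor, fell by 1.27. Over 30 nuclear genes of the chain and its regulators, 3 rose and 4 fell, 10% and 13.3% against 17.4% and 18.7% of all genes, the falls being these genes and NRF1; 5 rose and 6 fell with GC and length offsets, and 7 rose without DMSO replicate 3. The 13 protein genes of mitochondrial DNA summed to 28170 to 47005 CPM with FHT-1015 and 11234 to 29199 CPM with DMSO, ranges that overlap. They were called higher in 5 cases, of which none was called against the DMSO libraries of 4 h, and their number was 1 without FHT-1015 replicate 1 or 2, 3 without DMSO replicate 2 and 8 without DMSO replicate 1 or 3.

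**Figure D4:**
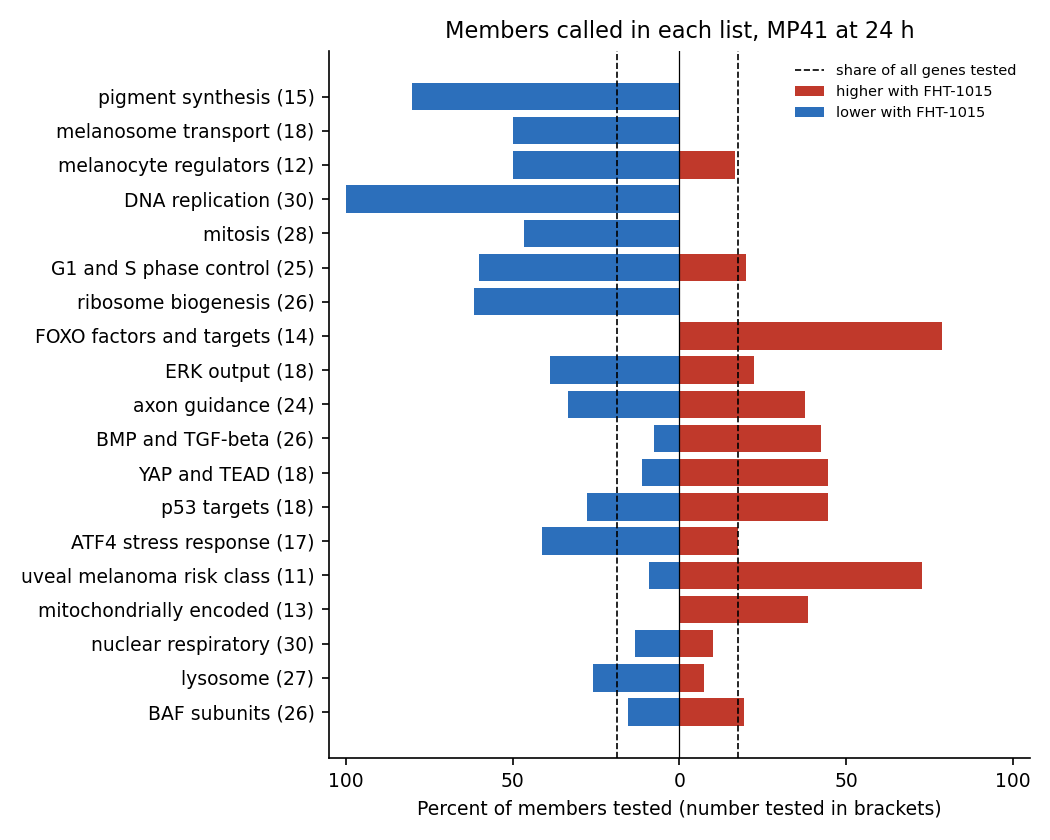
Members called higher (right) and lower (left) at 24 h in each gene list as a percentage of the members tested (x axis, number tested in brackets); dashed lines give the share of all genes tested. Replication, pigment and ribosome biogenesis lists lie on the lower side and the list of FOXO factors and targets on the higher side.

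The largest rises at a mean of 5 CPM or more were in genes of other roles. CALB1, a calcium buffer gene, stood at 16.1, 16.4 and 14.5 CPM against 0.602, 0.400 and 0.912 CPM (edgeR log2 fold change 4.57, SE 0.33, adjusted p = 5.11e-07). HCN4, a pacemaker channel gene, rose by 4.33, EDIL3, a secreted integrin ligand, by 4.08 and PDE7B, a cAMP phosphodiesterase, by 3.91. RDH10, which starts retinoic acid synthesis from retinol, stood at 889, 645 and 824 CPM against 64.8, 43.6 and 53.8 CPM (log2 fold change 3.86, or 2.09 against the DMSO libraries of 4 h). FREM2, an extracellular matrix protein gene, stood at 766, 495 and 585 CPM against 57.8, 46.1 and 40.3 CPM (log2 fold change 3.68). In CPM gained, with mitochondrial and ribosomal protein genes left aside, NQO1, a quinone reductase of the NRF2 programme, came first, from 1411, 848 and 1276 CPM to 3722, 3829 and 5190 CPM (log2 fold change 1.85), followed by HSPA4, a co-chaperone (2.02), and TXNRD1, thioredoxin reductase (1.52, or 0.65 against the DMSO libraries of 4 h).

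The deepest falls ended at low levels. HAS2, a hyaluronan synthase gene, stood at 5.77, 1.83 and 7.47 CPM with DMSO and below the limit of counting, taken as 3 reads, in each treated library, at least 35.1-fold lower. SLC5A4, a sugar-sensing transporter gene, stood at 1.31, 0.547 and 0.496 CPM against 89.7, 106 and 82.7 CPM (edgeR log2 fold change −6.94, SE 0.41, adjusted p = 1.24e-07). TRIM63, a ubiquitin ligase gene, stood at 1.08, 1.73 and 1.08 CPM against 59.0, 68.5 and 64.8 CPM (log2 fold change −5.61). ABCB5, a transporter known from melanoma, fell by 5.71 and MLIP, a lamin-interacting protein gene, by 6.07. TBC1D16, a GTPase-activating protein of vesicle traffic, lost the most CPM after PMEL, from 2180, 3385 and 1794 CPM to 374, 311 and 312 CPM (log2 fold change −2.88).

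The late response was set against that of the same line at 4 h, which had its own DMSO libraries. At 4 h, 11 genes were higher (0.0708%) and 24 lower (0.154%). Of these 35 genes, 22 were called in the same direction at 24 h, 10 were not called, and 3 were called in the opposite direction. Those 3 were MYC (log2 fold change 0.77 at 4 h and −1.03 at 24 h), the orphan receptor NR4A3 (1.06 and −0.52) and DEPP1, a FOXO target (−1.06 and 1.06). The 24 h call of NR4A3 was lost without DMSO 24 h replicate 1 or 2, FHT-1015 24 h replicate 2 or 3, or DMSO 4 h replicate 2 (edgeR adjusted p of 0.0508 to 0.142). The 24 h effect minus the 4 h effect, tested as an interaction in edgeR, was positive for 1202 genes (7.73%) and negative for 1688 (10.9%). Without DMSO 24 h replicate 3 these were 2891 and 2924. The positive count was 778 without DMSO 4 h replicate 2, 759 without DMSO 4 h replicate 3, 763 without FHT-1015 4 h replicate 1 and 798 without FHT-1015 4 h replicate 3.

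SOX10 was already lower at 4 h (log2 fold change −2.26, adjusted p = 0.000449 by edgeR). Its effect at 24 h was larger by a difference of −2.47 (SE 0.28, edgeR adjusted p = 7.2e-05). MITF at 4 h was not called (−0.55, edgeR adjusted p = 0.622), with a difference of −2.01 (SE 0.30, adjusted p = 0.000507). These differences also take in any change between the DMSO libraries of 4 h and 24 h. With those of 4 h as controls, the 24 h log2 fold change was −3.37 for SOX10 and −2.05 for MITF. For the pigment genes TRPM1 and TSPAN10 no fall was called at 4 h, with log2 fold changes of −0.05 and −0.16, and the tests of the difference gave −4.56 and −4.24 (edgeR adjusted p = 6.96e-06 and 1.21e-05). Among the clearest later rises were CYP20A1, an orphan cytochrome P450 (difference 3.21), ADRA2A, an adrenergic receptor (3.85), PDLIM5, an actin-associated adaptor (3.25), ARHGEF3, a guanine nucleotide exchange factor (3.14), and PNRC1, a nuclear receptor coregulator (2.99). Among the clearest later falls were the clock gene PER3 (difference −3.99), CDC25A, the phosphatase that opens S phase (−2.82), TTC39A (−2.74), SLC5A4 (−6.91) and TRIM63 (−5.71).

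The effect in MP41 at 24 h was compared with the mean effect in 92-1 and MEL202 at 24 h, in one edgeR fit of 36 libraries and 18395 genes. It was more positive in MP41 for 601 genes (3.27%) and more negative for 867 (4.71%). Without MP41 DMSO 24 h replicate 3 these were 2086 and 1567, and without MP41 DMSO 24 h replicate 2 they were 391 and 504. Called both with GC and length offsets and without each MP41 library of 24 h were 279 and 379. Over their own tested genes, 92-1 had 4580 genes higher (29.2%) and 4920 lower (31.4%), and MEL202 1383 (8.69%) and 1601 (10.1%).

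SOX10 fell in the 3 lines, by 4.74 in MP41, 4.69 in 92-1 and 5.43 in MEL202, and the difference of MP41 from the others, 0.24 with an SE of 0.25, did not pass the test (edgeR adjusted p = 0.593). MITF fell further in MP41, by 2.56 against 1.65 in 92-1 and 1.91 in MEL202 (difference −0.85, SE 0.25, adjusted p = 0.029 by edgeR). With the MP41 DMSO libraries of 4 h as controls, the MP41 values were −2.05 for MITF and −3.37 for SOX10. The comparison of lines was not run with those controls. For TYR and PMEL the fall in MP41 was smaller than the mean of the other lines, with values nearer to those of MEL202 than of 92-1. TYR fell by 1.61 in MP41, 4.36 in 92-1 and 2.21 in MEL202 (difference 1.60, edgeR adjusted p = 8.89e-06), and PMEL by 0.96, 3.55 and 1.19 (difference 1.32, SE 0.23, edgeR adjusted p = 0.000153).

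For several genes the effect in MP41 stood apart from that in the other lines. CTH, the cystathionine lyase of cysteine synthesis, stood at 67.4, 88.4 and 89.9 CPM against 7.93, 4.00 and 6.69 CPM, a log2 fold change of 3.72 beside 0.29 in 92-1 and 0.26 in MEL202 (difference 3.37, SE 0.29, edgeR adjusted p = 2e-09). CYP20A1 rose by 3.42 beside 0.03 and 0.07 (difference 3.29). In the other direction, SCRN1, secernin, fell by 4.00 beside log2 fold changes of 0.13 and 0.19 (difference −4.23). The WNT receptor FZD1 fell by 0.65 in MP41 and had log2 fold changes of 1.29 and 1.26 in the others (difference −2.0); its fall was not called against the DMSO libraries of 4 h (−0.12). SLC16A6, a monocarboxylate transporter family gene, fell in MP41 by 1.09 and by 3.86 and 3.82 in the others (difference 2.68). NQO1 rose in MP41, with a log2 fold change of 0.00 in 92-1 and 0.02 in MEL202 (difference 1.77, edgeR adjusted p = 9.95e-05).

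**Figure D5:**
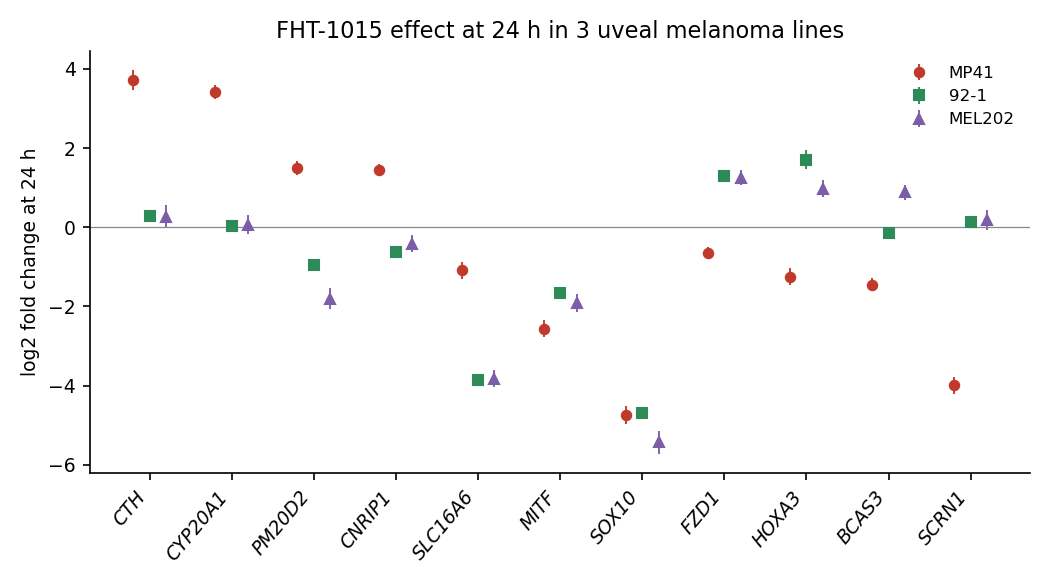
Log2 fold change at 24 h with its SE (y axis) in MP41, 92-1 and MEL202, each from its own fit, for 9 genes named for a difference between MP41 and the other lines and for SOX10 and MITF (x axis). CTH, CYP20A1 and SCRN1 lie far from 0 in MP41 and near 0 in the other lines.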

How the data were processed

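RNA of MP41 cells was sequenced after poly-A selection with a kit that does not mark strand, per the labels' protocols. Each deposited file gives unnormalised counts of reads for every gene, with 1 unstranded column, which was used, and 2 stranded columns in which the first strand held 49.73% to 50.11% of the reads. The submitters' processing notes name hg38 and limma; the aligner and annotation are not given in the sources used here. Of 58870 genes, 58597 were matched to GENCODE release 29 (GRCh38) by unversioned Ensembl identifier, 47420 under the identical version, which gave symbols, coordinates, GC content and length. The 92 spike-in rows, all at 0 reads, were left out.

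The 12 MP41 libraries were fitted in R 4.3.3 by edgeR 4.0.16, with filterByExpr, TMM scaling, 4 groups, quasi-likelihood F-tests and Benjamini-Hochberg adjustment over 15543 genes, called at an adjusted p under 0.05. Each SE was taken as the log2 fold change over the root of its F statistic. The fit's common biological coefficient of variation was 0.217. Depth was 17163998 to 23603769 reads in genes per library in the 6 libraries of 24 h. Over the 12 MP41 libraries it was 11394088 to 26355425. Reads are not independent molecules, so the limit of 3 reads covers counting error only. The comparison with 92-1 and MEL202 used 36 libraries in 1 fit. The scripts were tested on simulated counts.

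Alternatives were RLE or library-size normalisation, no filter, DESeq2 1.42.0, limma-voom (limma 3.58.1), the summed stranded columns, GC and length offsets (splines of 5 degrees of freedom), a replicate block, fits of fewer or more libraries, the DMSO libraries of 4 h as controls, and leaving out each library. Added after the values were seen were DMSO 24 h replicate 1 as the only control, and GC and length offsets with the 4 h controls or with each 24 h library left out.

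Genes were named by a rule: SMARCA4, SMARCA2, SOX10 and MITF; the 12 largest rises and 12 largest falls with groups that do not overlap and 5 CPM or more; the 5 largest gains and losses in CPM; up to 3 called members of each list in each direction; and the 5 clearest genes in each direction for the differences from 4 h and from the other lines. Not all of them are described, and some are not reported here. Further members (TYR, DCT, MLANA, SNAI2, LEF1, PAX3, PCNA, MKI67, TOP2A, E2F1, MYC, TXNIP, PIK3IP1, FOXO1, NRF1, DEPP1, STAT2, STAT3, GBP2, IRS2, SEMA6A, SEMA3B, PMP22, CLDN5, VWF, CDKN1A, CDKN1B, CDKN1C, CDKN2A) were named after their values were seen. The comparison and the gene lists were chosen with earlier results of these data known. 6 of 48 samples form the comparison, and the 12 samples of the fourth experiment were not used here.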

Additional observations from a re-analysis of the deposited data

Results flagged for a closer look

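Results are given here where the effect in MP41 at 24 h differed, by an interaction test, from that at 4 h or from the mean of the other 2 lines. The effect differed from that at 4 h with a more positive value for 1202 genes and a more negative value for 1688. Single genes with a more negative effect at 24 h were SOX10 (difference −2.47), MITF (−2.01), SLC5A4 (−6.91), TRIM63 (−5.71), PER3 (−3.99), CDC25A (−2.82) and TTC39A (−2.74). CYP20A1 (3.21), PDLIM5 (3.25), ADRA2A (3.85), ARHGEF3 (3.14) and PNRC1 (2.99) were more positive. Each of these differences also takes in any change between the DMSO libraries of 4 h and 24 h.

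Against the other lines, 601 genes were more positive in MP41 and 867 more negative. CTH (3.37), CYP20A1 (3.29), PM20D2 (2.81), SLC16A6 (2.68) and CNRIP1 (1.88) were more positive. SCRN1 (−4.23), HOXA3 (−2.67), FZD1 (−2.0), BCAS3 (−1.89) and MITF (−0.85) were more negative. The MP41 log2 fold change of MITF was −2.05 against the DMSO libraries of 4 h, in place of −2.56. PM20D2 rose in MP41 by 1.5 on the log2 scale and had log2 fold changes of −0.96 in 92-1 and −1.80 in MEL202. HOXA3 fell by 1.25 in MP41 and had values of 1.71 and 0.97 in the others. BCAS3 fell by 1.45 beside values of −0.15 and 0.88, and CNRIP1 rose by 1.44 beside −0.62 and −0.41. With GC and length offsets these differences kept their sign and call for CTH (3.10), CYP20A1 (2.97), PM20D2 (2.42), SLC16A6 (2.24), CNRIP1 (1.96), SCRN1 (−4.17), HOXA3 (−2.45), FZD1 (−1.84), BCAS3 (−1.55) and MITF (−1.14).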

How the results depend on the processing

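Of 154 called genes described here, 133 kept direction and call under every alternative run. The call was lost by 12 against the DMSO libraries of 4 h (ACTA2, CDKN1B, CDKN1C, CLDN4, FZD1, KIT, LRAT, MDM2, NR4A3, SKIL, SOX8 and VWF), by 9 in a fit of the 6 libraries alone (CDKN1A, CDKN1B, CDKN2A, IRS2, LEF1, LRAT, NR4A3, TYRP1 and VWF), by 6 with DMSO 24 h replicate 1 as the only control (CDKN2A, CLDN4, CLDN5, LEF1, NR4A3 and PRKCA), by LRAT and CDKN2A also with RLE, the stranded columns and the fit of 36 (there with VWF), by LRAT with library sizes alone, by LRAT and CDKN1A with GC and length offsets, and by CDKN1A, CDKN1B and CDKN2A with no filter. Called genes that reversed were SEMA3B against DMSO 4 h (0.32; with GC and length offsets 0.13) and BEST1 in the summed stranded columns (0.0669). Counts of higher and lower genes at 24 h were 4990 and 4445 with limma-voom and sample weights, and 1362 higher in the fit of 6 libraries; leaving out 1 library gave 1958 to 3966 and 2372 to 3939. Under other scalings the median change of all tested genes stayed between 0.04 and 0.08 (log2).

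Differences from 4 h numbered 3879 positive and 3474 negative with limma-voom, and 2042 and 2543 with GC and length offsets; leaving out 1 library gave 759 to 2891 and 1187 to 2924. Differences from the other lines numbered 3579 and 3486 with limma-voom, 1072 positive with no filter and 1133 positive with GC and length offsets; leaving out 1 library gave 391 to 2086 and 504 to 1567. The cause was not tested.

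Same-numbered FHT-1015 and DMSO libraries of 24 h deviated together by r = 0.05, 0.08 and 0.11 across genes, so the numbers were not taken to pair samples, though each library correlated best with its own number. With a replicate block, 2844 genes were higher and 2868 lower at 24 h, 1222 and 1649 differed from 4 h, and 673 and 897 from the other lines. With the block and GC and length offsets the counts were 3710 and 3696, 2151 and 2660, and 1300 and 1368. Of the genes described, CDKN2A alone lost its call under the block, and CDKN1A and VWF did with the block and offsets.

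SMARCA4 changed sign with GC and length offsets (0.0866; with the block 0.0784; against DMSO 4 h 0.0571) and against DMSO 4 h (0.25); leaving out 1 library gave −0.54 to −0.0023, and −0.12 to 0.19 with the offsets, where 4 of 6 fits were positive. SMARCA2 changed sign with limma-voom (−0.049), GC and length offsets (−0.24; with the block −0.25), the fit of 6 (−0.0266), DMSO 4 h (−0.0162) and the fit of 36 (−0.0431); leaving out 1 library gave −0.10 to 0.15, and −0.38 to −0.15 with the offsets. PAX3 changed sign with the offsets (0.0107; with the block 0.0139; leaving out 1 library −0.06 to 0.077). TOP2A changed sign without DMSO 24 h replicate 3 (0.42), and lay at −0.80 to −0.35 with the offsets and 1 library left out. None of these 4 genes was called with the settings of the report, while SMARCA4, SMARCA2 and TOP2A were called lower under 1 or more alternatives. Genes under about 1 CPM rest on few reads, and a fold there is limited by depth.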

Other observations

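Several other gene lists held calls in both directions in MP41 at 24 h, read against the 17.4% higher and 18.7% lower of all genes. Of 24 interferon-stimulated genes, 6 rose and 8 fell (25% and 33.3%), with 4 of each kept (6.92% and 10.5% of all genes were). Without FHT-1015 replicate 1, 5 fell. Against the DMSO libraries of 4 h 7 rose and 5 fell, where 16% and 16.9% of all genes did. STAT2 is among the kept rises, and OAS3, an antiviral nucleotide synthase, fell from 24.3, 32.3 and 26.9 CPM to 9.08, 7.15 and 6.33 CPM (edgeR log2 fold change −1.89, SE 0.18, adjusted p = 4.9e-06). GBP2, a guanylate-binding protein gene, fell by 2.61. Of 18 cytokine and JAK-STAT genes, 4 rose and 4 fell (22.2% each), and 7 rose without DMSO replicate 3. CISH and CNTFR fell by 2.65 and 2.36, and STAT3 rose from 193, 227 and 163 CPM to 410, 345 and 335 CPM (log2 fold change 0.90).

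Of 24 cholesterol genes, 6 rose and 6 fell (25% each), near the shares of all genes, with 3 higher without DMSO replicate 1 or FHT-1015 replicate 3. ABCA1, the sterol exporter, rose by 1.82 and FASN, fatty acid synthase, fell by 1.59 on the log2 scale. Of 25 calcium genes, 3 were called higher (12%, none kept) and 8 lower (32%, 4 of them kept); 6 were higher with GC and length offsets, 1 without DMSO replicate 1 and 5 without DMSO replicate 3, and 4 were lower against the DMSO libraries of 4 h. Among the falls, TRPM8, a cold-sensing channel gene, fell from 9.28, 8.29 and 7.55 CPM to 0.418, 0.841 and 0.207 CPM (edgeR log2 fold change −4.07, SE 0.42, adjusted p = 8.59e-06), and ORAI1, the store-operated channel, fell by 1.98, or by 1.01 against the DMSO libraries of 4 h. Schwann and glia markers fell in 5 of 9 cases (55.6%) and rose in 0; against the DMSO libraries of 4 h, 5 were lower and 2 higher, and 1 was higher without DMSO replicate 2 or 3. MBP, myelin basic protein, stood at 52.6, 43.5 and 48.5 CPM against 214, 282 and 241 CPM (log2 fold change −2.35), and S100B, a calcium-binding protein gene of glia and pigment cells, fell by 1.77, or by 0.77 against the DMSO libraries of 4 h.

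Short motifs of other factors were counted in the same RefSeq promoters, on both strands. ACAATG, a core of SOX sites, was in 6.78% of promoters of tested genes, 7.77% of those of higher and 6.63% of those of lower genes. TGANTCA, the AP-1 site, was in 5.28%, 5.50% and 6.22%, and GGAATG, the TEAD site, in 11.5%, 11.7% and 11.7%. These are shares of letters in a window and were not tested.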
